A study of Mus musculus with 2 samples.

Results

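The sites described here are lone open sites of undifferentiated RAW264 cells: DNase-hypersensitive peaks on chromosomes 1 to 19 that had no other peak of the same list within 250 kb on either side, measured between peak edges. They were chosen by the peak positions in the list without RANKL, and 457 of the 13366 peaks of that list on these chromosomes (3.42%, 95% Wilson interval 3.12 to 3.74%) met the rule. The whole list held 13492 peaks. RAW264 is an established mouse macrophage-like line, grown here in alpha-minimum essential medium with fetal bovine serum. It forms osteoclasts when given RANKL, the cytokine that starts osteoclast formation. The 2 groups were undifferentiated cells without RANKL, and cells treated with 234 ng/ml of GST-RANKL over 24 hours, with 1 library each. Values therefore describe these 2 libraries, carry no replicate error and allow no test. Each interval is a counting interval and assumes that peaks vary independently of their neighbours, which may not hold.

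DNase-seq maps where a light DNase I digestion cuts the chromatin of isolated nuclei, and the cuts gather where nucleosomes are displaced, mostly at promoters, enhancers and insulators. Such sites crowd together in gene-rich chromatin and thin out in gene-poor stretches, which are often replicated late and held in repressed chromatin. An open site far from any other may be the promoter of a solitary gene, a distant enhancer or a structural site bound by a factor such as CTCF. Positions are 1-based on mm9. No gene annotation or sequence of that build was used here, so sites are named by position, and neither the cells' marker genes nor the sequences under the sites were examined.

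Lone peaks had scores close to those of other peaks, and were found again in the RANKL list at about the same rate. Of the 457 lone peaks, 283 (61.9%, Wilson interval 57.4 to 66.3%) were overlapped by at least 1 bp of a RANKL peak and 174 were not. Over all peaks without RANKL on these chromosomes the share was 60.7%, and over the 12909 peaks with a neighbour it was also 60.7% (interval 59.8 to 61.5%). The difference between lone and other peaks was 1.25 percentage points, with a Newcombe interval from -3.36 to 5.67 points. An excess or deficit of several points thus could not be seen with this number of lone peaks. The lone peaks' score, the authors' own value for each peak, had a median of 103.59 (quartiles 71.4 and 169), against 101.16 for the other peaks (quartiles 70.0 and 153). Ranked within the whole list, the lone peaks had a median percentile of 51.5 (interval 46.8 to 55.4) and the other peaks 50.0 (interval 49.2 to 50.9).

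The isolation of the members varied widely. The gap to the nearest other peak had a median of 415 kb (quartiles 320 and 653 kb) and reached 4279 kb. Among the peaks with a neighbour the median gap was 20.3 kb. For the 448 members with a peak on both sides, the stretch between these flanking peaks had a median length of 1.54 Mb (quartiles 1.00 and 2.71 Mb) and a maximum of 12.9 Mb. The other 9 members were the first or last peak of their chromosome. Among the 448, the longer gap was a median of 2.05 times the shorter one. No expected ratio was computed, so this value does not show whether members stood off the middle more than other placements would give. At the limit of the rule, the 5 least isolated members had gaps of 250.919 to 253.71 kb, and 3 of these 5 were overlapped by a RANKL peak. The 5 peaks that missed the rule by least had gaps of 249.564 to 249.967 kb, and 3 of these 5 were overlapped.

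**Figure D1:**
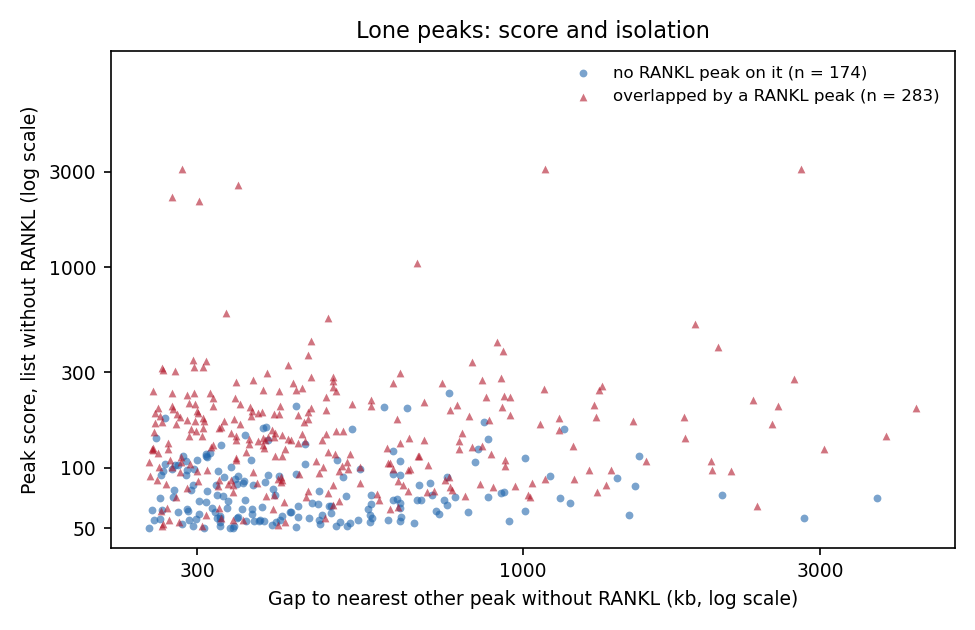
Score of each lone peak (log scale) against the gap in kb to the nearest other peak without RANKL (log scale), with triangles for the 283 peaks overlapped by a RANKL peak and circles for the 174 that were not. Overlapped peaks are found over the whole range of gaps and lie mostly in the upper part of the score range. The 7 peaks with a score over 1000 are all overlapped. Of the other peaks, not drawn, 94.2% are overlapped in the highest of 4 equal parts by score.

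Lone peaks that a RANKL peak overlapped had higher scores than those that none overlapped. The 174 lone peaks without a RANKL peak had a median score of 70.0, and the 283 with one had a median of 139. The other peaks differed in the same way, with medians of 73.35 and 131.27. Isolation showed no steady relation to overlap. Of the members whose nearest neighbour was 250 to 500 kb away, 175 of 285 were overlapped (61.4%, interval 55.6 to 66.9%). At 500 kb to 1 Mb it was 71 of 122 (58.2%, interval 49.3 to 66.6%), and beyond 1 Mb it was 37 of 50 (74.0%, interval 60.4 to 84.1%). The 3 intervals overlap one another.

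Because score and width both go with overlap, lone and other peaks were also set side by side at like score and at like width, in 4 equal parts of all 13366 peaks. In the lowest part by score (50 to 70.02), 23 of 110 lone peaks were overlapped (20.9%, interval 14.4 to 29.4%), against 29.3% of the other peaks (interval 27.7 to 30.9%). The difference was -8.36 points (interval -15.1 to 0.29). In the next part, 54.9% of 113 lone peaks and 47.3% of the other peaks were overlapped, a difference of 7.53 points (interval -1.81 to 16.6). In the part above it the shares were 74.8% of 103 and 72.0%, and in the highest part 92.4% of 131 and 94.2%. The interval of the difference included 0 in all 4 parts. At like width, the lone peaks had the higher share in 3 of 4 parts. In the part from 1429 to 1742 bp, 65.8% of 111 lone peaks were overlapped, against 56.3% of the other peaks, and the interval of this difference (9.44 points, 0.067 to 17.8) just cleared 0. It was 1 of 8 such differences computed, and it was not corrected for their number. The lone peaks of that part also had higher scores, with a median of 115.04 against 93.17 for the other peaks. The 2 sets were thus alike in width there but not in score.

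**Figure D2:**
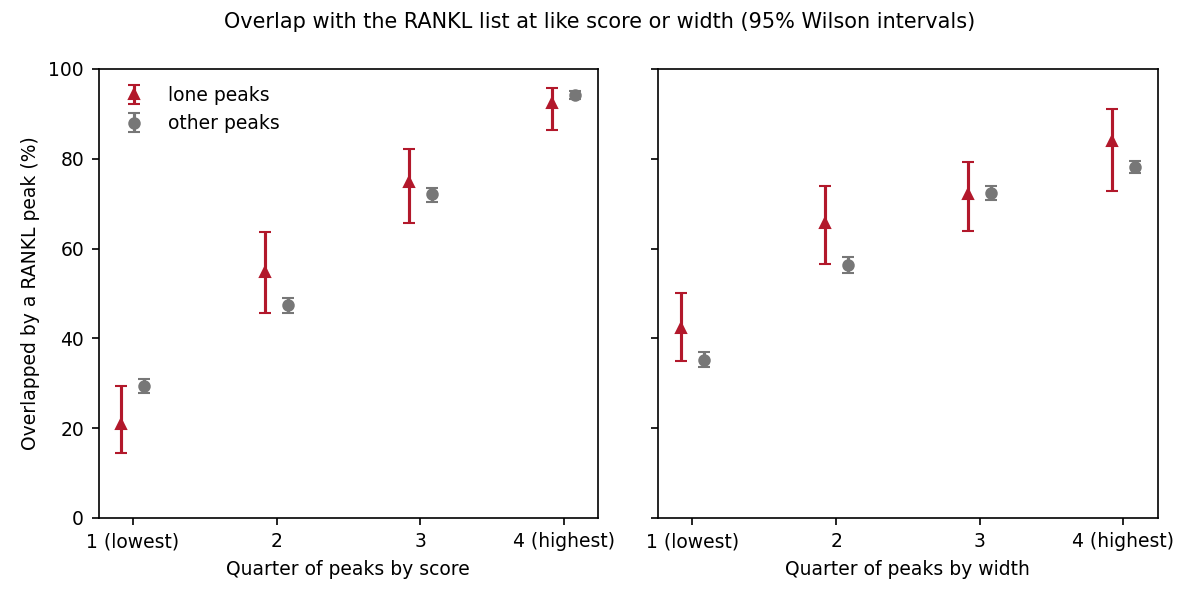
Percent of lone peaks (triangles) and of all other peaks without RANKL (circles) on chromosomes 1 to 19 that a RANKL peak overlapped, in 4 equal parts of the peaks by score (left) and by width (right), with 95% Wilson intervals. The share rises from 20.9 to 92.4% for lone peaks and from 29.3 to 94.2% for other peaks across the parts by score, and the 2 series run close together.

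Lone peaks were narrower than other peaks. Their median width was 1639 bp (interval 1567 to 1689 bp; quartiles 1322 and 1922 bp), against 1746 bp for the other peaks (interval 1735 to 1758 bp; quartiles 1433 and 2133 bp). The gap in width was also present at like score. In the 4 parts by score, from lowest to highest, the lone peaks had median widths of 1251, 1504, 1768 and 1872 bp. The other peaks had 1370, 1616, 1856 and 2068 bp in the same parts. The intervals of the 2 medians were apart in the lowest and the upper 2 parts and overlapped in the part between. Width rose with the score within both sets, with a Spearman rho of 0.59 over the 457 lone peaks and 0.54 over the 12909 other peaks. Both measures come from the same reads of 1 library.

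The RANKL library, which the rule did not use, also held narrower peaks at these sites. The highest-scoring RANKL peak on each of the 283 overlapped lone peaks had a median width of 283 bp (interval 266 to 307 bp). On the 7832 overlapped other peaks it was 331 bp (interval 325 to 336 bp). By score part of the list without RANKL, the medians on lone peaks were 187, 253, 247 and 379 bp, and those on other peaks were 239, 260, 308.5 and 447 bp. Their intervals were apart in the upper 2 parts. The RANKL peak sat centrally in both sets. Where a single RANKL peak lay on the site, its centre was a median of 147 bp from the centre of the lone peak (200 sites) and 153 bp from that of the other peaks (5683 sites). It lay wholly inside the lone peak at 199 of the 200 sites, and wholly inside the other peak at 5668 of the 5683, so this was alike in both sets. A further 83 lone peaks (18.2% of all lone peaks, interval 14.9 to 22.0%) held 2 or more RANKL peaks, against 16.6% of the other peaks (interval 16.0 to 17.3%), and no lone peak held more than 5. Within the RANKL list these highest-scoring peaks had a median percentile of 73.0 on lone peaks and 70.3 on other peaks.

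Over bins of local peak density, overlap was close to 60% except in the densest bin, where it was higher, and median width was larger in the denser bins. Peaks with 0, 1, 2 to 4, 5 to 9, 10 to 19 and 20 or more other peaks within 250 kb were overlapped by a RANKL peak in 61.9, 59.1, 60.1, 59.8, 62.05 and 68.5% of cases. The interval for peaks with 20 or more neighbours was 63.3 to 73.2%. It was apart from those for 1 neighbour (55.5 to 62.65%), 2 to 4 (58.4 to 61.8%) and 5 to 9 (58.4 to 61.1%). It overlapped the interval for 10 to 19 neighbours (60.5 to 63.6%) and the wider interval of the lone peaks. Peaks in the densest bin also had higher scores, with a median of 115.51 against 101.22 over all peaks. Median widths over the same bins were 1639, 1636, 1701, 1742, 1801.5 and 1915 bp. The lone peaks thus had nearly the same median width as the 714 peaks with a single neighbour (interval 1589 to 1687 bp) and were narrower than peaks in the densest surroundings (interval 1843 to 1999 bp).

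**Figure D3:**
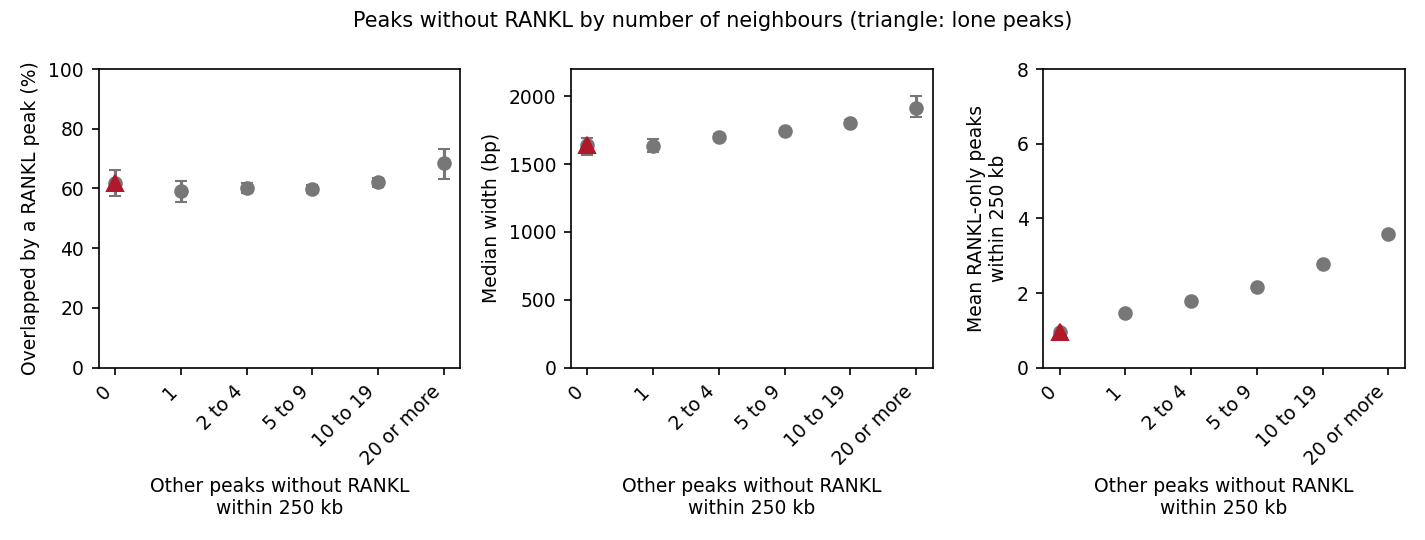
Peaks without RANKL on chromosomes 1 to 19, binned by the number of other peaks of the same list within 250 kb: percent overlapped by a RANKL peak (left, 95% Wilson intervals), median width in bp (middle, 95% order-statistic intervals) and mean number within 250 kb of RANKL-only peaks, which touch no peak without RANKL (right, no interval). Triangles mark the 457 lone peaks: their overlap of 61.9% is close to that of the bins up to 19 neighbours, their width of 1639 bp is near the low end, and their mean of 0.958 RANKL-only peaks is the lowest.

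Fewer RANKL peaks lay around lone peaks than around other peaks, and part of this follows from the rule. A lone peak has no neighbour within 250 kb on which a RANKL peak could lie, while the other peaks do. A RANKL peak that did not touch the lone peak lay within 250 kb of 258 members (56.5%, interval 51.9 to 60.9%), while for all peaks without RANKL on these chromosomes this share was 97.3%. Among the members, 199 had no such RANKL peak, 148 had 1, 71 had 2 and 39 had 3 or more. The median was 1 for lone peaks and 7 for the other peaks, which themselves had a median of 7 neighbours. The rule does not fix the number of RANKL-only peaks, which are RANKL peaks that touch no peak without RANKL. All the RANKL peaks counted around lone peaks were of this kind. Counted in this way, 258 lone peaks (56.5%) and 84.0% of the other peaks (interval 83.4 to 84.7%) had at least 1 within 250 kb, against 83.1% of all peaks, and the medians were 1 and 2. There were 132 members with at least 1 RANKL peak on them and no RANKL peak off them within 250 kb. Of these, 97 held 1 RANKL peak and 35 held 2 or more. The 132 made up 28.9% of all members (interval 24.9 to 33.2%). Another 67 members had no RANKL peak on them or within 250 kb. Further RANKL peaks were absent around 46.6% of the overlapped members (interval 40.9 to 52.5%) and around 38.5% of the members not overlapped (interval 31.6 to 45.9%). Among the 174 members not overlapped, 0 had a RANKL peak within 1 kb, 9 had one within 10 kb, and the median distance to the nearest RANKL peak was 171 kb. For the 5077 other peaks that were not overlapped, the median was 23.9 kb to any RANKL peak, including those on neighbouring sites, and 81.1 kb to the nearest RANKL-only peak.

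In all, 426 different RANKL peaks lay off the lone peaks but within 250 kb. They were faint: their median score of 57.2 was near the 57.8 of all 5465 RANKL-only peaks on chromosomes 1 to 19. None of the 426 was in the highest 10% of the RANKL list, and the highest score among them was 197.8. The share of all 5465 RANKL-only peaks in that 10% was not computed, so this count does not set the 426 apart from them. In the highest of 4 equal parts of that list by score, 3736 of 3964 peaks with a RANKL neighbour within 250 kb overlapped a peak without RANKL. So did 64 of the 76 with no such neighbour. RANKL-only peaks were thus the smaller part of the high scores in both sets. They were more common among the peaks with no such neighbour, where 84.2% overlapped against 94.2%. That difference was -10.0 points (interval -19.9 to -3.47). To compare their density, each base between a pair of neighbouring peaks without RANKL was assigned to the nearer peak, up to 250 kb away. In the flanks of lone peaks, RANKL-only peaks numbered 1.85 per Mb (373 peaks in 202 Mb, exact Poisson interval 1.67 to 2.05). In the flanks of the other peaks they numbered 3.80 per Mb (4414 peaks, interval 3.69 to 3.91). Within 10 kb of the site there were 2.32 per Mb beside lone peaks, from 21 peaks (interval 1.44 to 3.55), and 5.52 per Mb beside other peaks (interval 5.21 to 5.83). From 10 to 50 kb the values were 2.54 (interval 2.05 to 3.12) and 4.51 per Mb (interval 4.31 to 4.72). From 100 to 250 kb they were 1.49 (interval 1.28 to 1.74) and 2.15 per Mb (interval 1.99 to 2.32). The intervals of lone and other peaks were apart in each of these bands, and the lone peaks had the lower density.

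**Figure D4:**
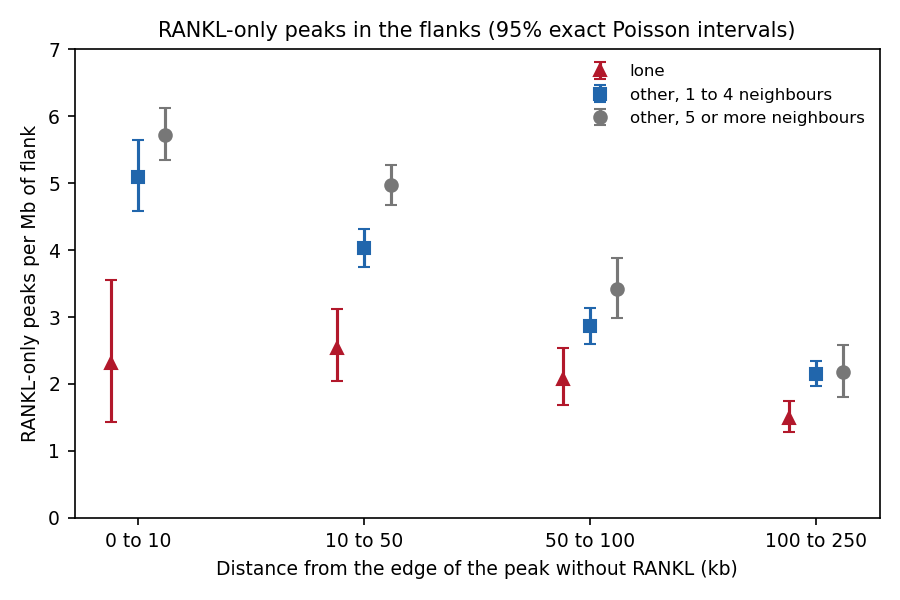
RANKL-only peaks per Mb of flank by distance in kb from the edge of the peak without RANKL, for lone peaks (triangles), peaks with 1 to 4 neighbours (squares) and peaks with 5 or more neighbours (circles), with 95% exact Poisson intervals. The lone peaks have the lowest density in each distance band, from 2.32 per Mb within 10 kb to 1.49 per Mb at 100 to 250 kb.

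Isolation had a different relation to overlap when the same rule was applied to the RANKL list. That list had 592 lone peaks among 16160 on chromosomes 1 to 19 (3.66%), and 159 of them (26.9%, interval 23.4 to 30.6%) overlapped a peak without RANKL. Of the other RANKL peaks 67.7% did, a difference of -40.8 points (interval -44.3 to -37.0). The lone RANKL peaks were fainter, with a median score of 57.5 against 74.4, and narrower, with a median of 148 bp against 240 bp. At like score the difference was still present. In the lowest of 4 equal parts of the RANKL list by score, 7.39% of 284 lone and 39.0% of other RANKL peaks overlapped a peak without RANKL, and in the highest part 84.2% of 76 and 94.2% did. A site called as several narrow RANKL peaks cannot be lone by this rule. With RANKL peaks closer than 1 kb merged, the shares were 33.1% of 655 lone regions and 62.5% of the others. In the lowest part by score of this merged list they were 7.85% of 293 and 25.7%. That difference of -17.8 points was smaller than the -31.6 points in the lowest part without merging. In the highest part of the merged list they were 86.9% of 99 and 95.2%. With RANKL peaks closer than 5 kb merged, the shares over all scores were 33.3% of 661 and 64.3%. Lone peaks of the 2 lists met at 97 sites, which are 16.4% of the lone RANKL peaks and 21.2% of the lone peaks without RANKL.

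The members' share of peaks differed between chromosomes. It was lowest on chromosome 11, with 12 lone peaks of 1148 (1.05%, interval 0.599 to 1.82%), the chromosome with the most peaks per Mb (9.67). It was highest on chromosome 13, with 30 of 533 (5.63%, interval 3.97 to 7.92%), followed by chromosome 12 with 29 of 550 (5.27%, interval 3.70 to 7.47%). Chromosomes 12 and 13 held 4.68 and 4.56 peaks per Mb. The largest number of lone peaks, 40, was on chromosome 1, and 30 of these 40 were overlapped by a RANKL peak (75%, interval 59.8 to 85.8%), against 61.9% of the other peaks of that chromosome. On chromosome 16 the count was 5 of 15 (33.3%, interval 15.2 to 58.3%), the lowest share of the 19 chromosomes, against 59.6% of its other peaks.

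**Figure D5:**
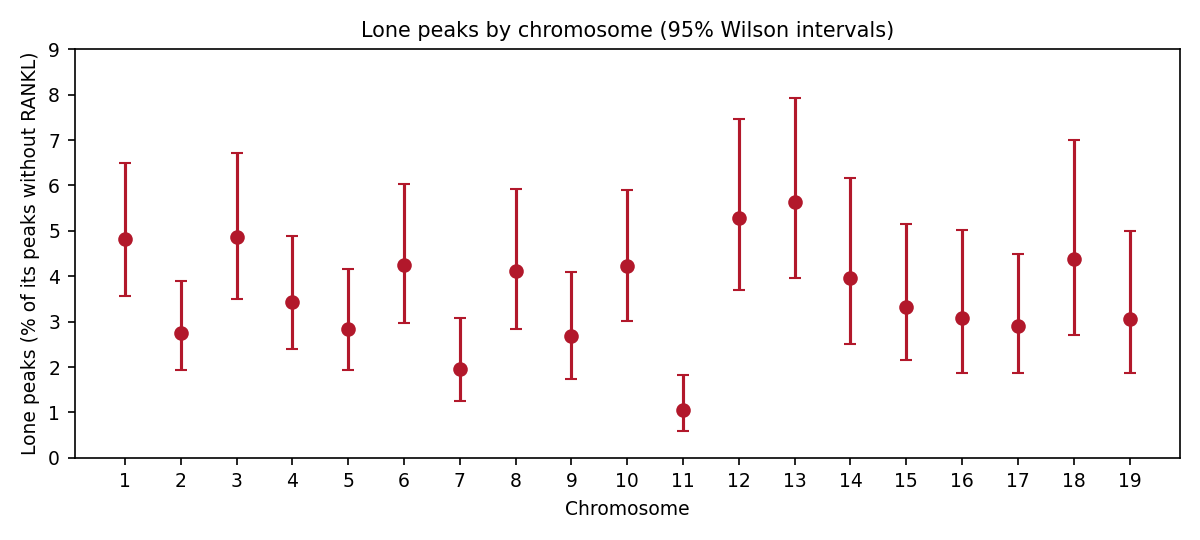
Lone peaks as a percent of all peaks without RANKL on each of chromosomes 1 to 19, with 95% Wilson intervals. Chromosome 11 is lowest at 1.05% and chromosome 13 highest at 5.63%, and the intervals of most chromosomes overlap.

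Of the lone peaks, 202 stood in 85 runs of at least 2 consecutive lone peaks. The rule favours such runs, because a peak next to a lone peak already has a gap of over 250 kb on that side. No expected number of runs was computed. The longest run, chosen after the values were seen, held 7 lone peaks on chromosome 17 between 37406720 and 44243240, a span of 6.84 Mb. Their scores in order of position were 113.86, 3100, 180.87, 55.46, 115.04, 101.36 and 84.34, and 5 of the 7 were overlapped by a RANKL peak. The next longest held 5 lone peaks on chromosome 4 between 22283829 and 26274621, a span of 3.99 Mb. All 5 of these were overlapped, and their scores were 137.53, 149.9, 141.73, 243.4 and 164.88. The first run thus spanned percentiles from 7.92 to 99.9 of the list, and the second held 5 peaks from the upper part of the list.

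The very highest scores were held by lone peaks more often than their number would give. Lone peaks were 12 of the 134 peaks in the highest 1% by score (8.96%, interval 5.20 to 15.0%), against 3.42% of all peaks. Above a score of 1000 they were 7 of 35 (20.0%, interval 10.0 to 35.9%). Between the 90th and 99th percentile they were 48 of 1203 (3.99%), and in the lowest 10% they were 54 of 1336 (4.04%). By width the order was the other way, with 2 lone peaks among the 134 widest 1% (1.49%) and 70 among the narrowest 1339 (5.23%). These bands were chosen after the values were seen. The lone peaks at the very top were few, and all 7 lone peaks with a score over 1000 had a RANKL peak on them. Overlap was common at high scores in both sets: in the highest of the 4 parts by score, 94.2% of the other peaks were overlapped. The share among other peaks with a score over 1000 was not computed. Neither the sequences under these sites nor how uniquely reads map to them was examined.

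The 10 highest-scoring lone peaks with a RANKL peak on them differed in width and in the number of RANKL peaks they held. A score of exactly 3100 was reached by 3 of them. This value was shared by 15 peaks without RANKL and 40 RANKL peaks, with 1 peak above it in each list, so an equal score of 3100 does not rank sites or compare the lists. The first, on chromosome 3 at 5860403 to 5861057, was 655 bp wide and held 1 RANKL peak of 228 bp, also scored 3100. The second, on chromosome 6 at 103598833 to 103599799, was 967 bp wide, stood 2789 kb from the nearest peak and held 1 RANKL peak of 304 bp, again scored 3100. Both were among the narrower peaks of the list, in which the narrowest 25% ended at 1428 bp.

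The third, on chromosome 17 at 39979727 to 39985991, was the widest lone peak at 6265 bp. It held 2 RANKL peaks, of which the higher-scoring was 3749 bp wide and scored 3100, and it belongs to the run of 7 described above. None of these 3 had a further RANKL peak within 250 kb. Another 3 lone peaks had scores above 2000. The peak on chromosome 11 at 108872260 to 108874072 scored 2561. The peak on chromosome 18 at 3003940 to 3006960 scored 2246, and that on chromosome 13 at 77577501 to 77578983 scored 2150. Each held a RANKL peak scored 3100. The site on chromosome 18 was the first peak of its chromosome and held 4 RANKL peaks, with 3 more within 250 kb.

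The other 4 had lower scores in both lists. On chromosome 3, the peak at 8244475 to 8247201 scored 1047 and held 5 RANKL peaks, the highest of them scored 2314. It was the next peak after that at 5860403, with 2383 kb between them. The peak on chromosome 2 at 5299668 to 5301104 scored 592, and its RANKL peak scored 972. On chromosome 5, the peak at 105356236 to 105358063 scored 562, held 4 RANKL peaks and had 4 more within 250 kb. The peak on chromosome 12 at 68159695 to 68161243 scored 521 and was the second most isolated of these 10, 1885 kb from the nearest peak.

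The 5 highest-scoring lone peaks without a RANKL peak had far lower scores than those 10. The highest lay on chromosome 5 at 22055116 to 22057103, with a score of 237, a percentile of 92.4 and the nearest RANKL peak 75.9 kb away. The next, on chromosome 1 at 57028975 to 57030978, scored 203. The peak on chromosome 8 at 36557613 to 36559724 scored 201 and had no RANKL peak within 250 kb, the nearest being 289 kb away. The last of them lay on chromosome 4 at 32049774 to 32051430 (score 200), with a RANKL peak 8.69 kb away, and on chromosome 17 at 64680631 to 64682407 (score 177). Of these 5, only the first was in the highest 10% of its list.

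The 5 most isolated lone peaks varied widely in score, with percentiles from 9.16 to 86.9. The most isolated lay on chromosome 1 at 113760504 to 113762425, with gaps of 4279 and 6445 kb to the peaks on either side. It scored 198, a percentile of 86.9, and held 1 RANKL peak of 140 bp that scored 52.5, with no other RANKL peak within 250 kb. On chromosome 14, the peak at 41778610 to 41781444 scored 144, stood 3829 kb from the nearest peak and held 2 RANKL peaks. On the same chromosome, the peak at 115441078 to 115442584 scored 124, and the gap before it was 9783 kb.

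Both of the remaining most isolated peaks lay on chromosome 5, and neither was overlapped. The one at 58105820 to 58111850 was 6031 bp wide yet scored 70.6, and the nearest RANKL peak was 137 kb away. The one at 12355242 to 12356175 scored 56.5, close to the lowest score of the list, with a RANKL peak 3.42 kb away. Among the 5 most isolated sites, then, 3 had a RANKL peak, against 60.7% of all peaks and 74.0% of the 50 lone peaks isolated by over 1 Mb. The higher-scoring RANKL peak on each of these 3 was faint, at 52.5, 57.7 and 65.9. This did not hold for all members isolated by over 1 Mb. The RANKL peaks at 103598833 on chromosome 6 and 68159695 on chromosome 12, described above, scored 3100 and 946.

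A few lone peaks lay among several RANKL peaks. The largest number off the site but within 250 kb was 7, around the peak on chromosome 3 at 110052214 to 110055445 (score 149, 3232 bp wide). This peak lies between 55 and 130 Mb of chromosome 3, where the peaks with a neighbour had a median of 14 RANKL peaks off them within 250 kb, against 7 over all such peaks. The same segment held 13 lone peaks, of which 8 were overlapped (61.5%, interval 35.5 to 82.3%), against 74.9% of its 458 other peaks (interval 70.7 to 78.6%). Around the peaks on chromosome 3 at 52647568 to 52648552 (score 69.3) and on chromosome 12 at 27153824 to 27155230 (score 97.8) there were 6. The first of these was not overlapped, its nearest RANKL peak being 33.8 kb away, and the second held a RANKL peak of 478 bp that scored 106. On chromosome 1, the peaks at 54620412 to 54621584 (score 53.7) and at 165332690 to 165334791 (score 83.9) had 5 each, as had 2 further members on chromosomes 10 and 13. The chromosome 1 peak at 165332690 held 2 RANKL peaks, the higher of which scored 304 and lay at a percentile of 95.4 in its list.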

How the data were processed

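DNase-seq was run on 2 libraries, 1 without RANKL and 1 with RANKL for 24 hours. For each library the authors deposited a list of peak positions, with 1 score for each. The submitters' processing notes name Bowtie2 (version 2.0.0), MACS2 and build mm9. The threshold for calling a peak, any control library and what the score is made from are not given in the sources used. Scores were therefore ranked only within a list. Read depth is unknown. A site missing from a list may lie under its calling threshold.

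Gaps, overlaps (at least 1 bp) and intervals (95%) were computed in Python 3.11.15 using scipy 1.17.1, pandas 2.3.3 and numpy 2.4.6; figures were drawn with matplotlib 3.10.9. On 5700 planted peaks, with gaps just under, at and just over 250 kb and overlaps of 1 bp or abutting edges, all 5700 were classified correctly for isolation and for overlap. Named sites were the 10 overlapped and the 5 not overlapped lone peaks of highest score, the 5 most isolated, and the 5 with the most RANKL peaks nearby, with ties broken by chromosome and start (4 members tied at 5 such peaks, of which 2 are named with values). The members, rules and alternatives were chosen with earlier results of these data known. The parts by score and width were planned; density in flanks, RANKL-only peaks within 250 kb, width of RANKL peaks, runs, and the rule in the RANKL list were added after the data were seen.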

Additional observations from a re-analysis of the deposited data

Results flagged for a closer look

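Chromosome X lay outside the rule and was not part of the comparisons. It held 32 lone peaks by the same gap, 28.3% of its 113 peaks without RANKL (interval 20.8 to 37.2%), and 14 of the 32 (43.75%, interval 28.2 to 60.7%) were overlapped by a RANKL peak, against 45 of its 81 other peaks (55.6%, interval 44.7 to 65.9%). The chromosome had 0.710 peaks without RANKL per Mb between its first and last peak.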

How the results depend on the processing

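Of 51 alternative values, 38 stayed within the counting interval of the reported value, or within 1.5 times the reported count. The number of lone peaks followed the rule: 1430 at a gap of 100 kb, 172 at 500 kb, 50 at 1 Mb, and 700 when only the upper 50% of the list was used. With a gap of 1 Mb the share overlapped was 74.0%, the difference from other peaks 13.3 points (interval -0.24 to 23.5), the median score percentile 57.4 and the median width 1722 bp, all from 50 peaks. The share overlapped was 82.3% in the upper 50% of the list without RANKL, 48.4% with the upper 50% of the RANKL list, and 49.5% when centres had to lie within 250 bp. The other peaks shifted too: lone minus other was -0.91 points (interval -4.05 to 1.92) and 3.85 points (interval -0.78 to 8.50) under the first 2 of these. Under the last the difference was 5.53 points, inside the reported interval, but its own interval (0.89 to 10.2) did not include 0. A further RANKL peak lay near 13.1% of lone peaks with the upper 50% of the RANKL list and near 34.4% within 100 kb, both fewer by construction. Leaving out scores over 1000 or the chromosome 3 segment, added after the data were seen, moved none of the 6 results beyond these limits. No paired analysis was possible because each condition had 1 library, which also leaves no replicate to drop. How deeply each library was read is unknown, which limits what can be said of sites missing from a list.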
